A study of Mus musculus with 11 samples.

Results

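The genes of the proteasome and of its immune form were followed in BV2 cells treated with amino-terminal fragments of apolipoprotein E. Members were all genes of the count files whose symbol starts with Psm, a letter from a to g and a number, which gave 50 of 36529 listed genes. Of these, 5 encode immune subunits (Psmb8, Psmb9, Psmb10, Psme1 and Psme2), and 41 encode the constitutive subunits, activators, an inhibitor and assembly chaperones. A further 2 are restricted to other tissues (Psma8 of the testis and Psmb11 of the thymus), and 2 only share the pattern of the symbol (Psmc3ip, a recombination factor, and Psme2b, a copy of Psme2).

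The proteasome is a barrel of alpha and beta rings that degrades proteins tagged with ubiquitin, and a regulatory particle with ATPases recognizes, unfolds and feeds them into the barrel. Interferons and other inflammatory signals induce Psmb8, Psmb9 and Psmb10, which take the places of the catalytic subunits Psmb5, Psmb6 and Psmb7 in newly made barrels and favour peptides that fit class I molecules of antigen presentation. Psme1 and Psme2 form an interferon-inducible cap on the barrel that needs no ubiquitin. Microglia, the resident macrophages of the brain, are known to raise these subunits when activated.

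BV2 is a transformed line of C57BL/6 mouse microglia. In one experiment, 3 samples received nApoE4 1-151, a His-tagged recombinant fragment with residues 1 to 151 of human ApoE4, at 25 μg/ml for 5 h, and 3 samples were left without it. In a separate experiment, 2 samples received the corresponding ApoE3 fragment, nApoE3 1-151, at the same dose and time, and 3 samples were their controls. The fragments differ by a single residue, and fragment and experiment cannot be told apart. The labels name PBS as vehicle for the controls and the methods of the study name conditioned medium, so what the controls received is not settled. The labels do not say that replicates were separate cultures, and the p-values measure only the spread between these samples.

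Libraries held 39732710 to 44162511 counts on genes in the nApoE4 experiment and 55809688 to 69768666 in the nApoE3 experiment, and 3 counts corresponded to 0.0430 to 0.0755 CPM, or counts scaled to the size of the library. The macrophage genes Csf1r, Itgam, Ptprc and Tyrobp had group means of 65.8 to 799 CPM, whereas the microglial P2ry12 was listed at 0 in all 11 libraries and Aif1, Cx3cr1 and Sall1 had at most 43 counts. Tmem119, a microglial surface gene with group means of 1.42 to 8.55 CPM, fell with both fragments (log2 fold change -0.98 with nApoE4 and -2.40 with nApoE3). The macrophage genes did not move together. Ptprc rose by 0.95 with nApoE4 and 0.87 with nApoE3, while Itgam changed by -0.37 and -0.30 and Tyrobp by -0.29 and -0.16. Csf1r changed by -0.15 with each fragment, past the threshold with nApoE3 only. On few counts, Cx3cr1 rose with nApoE3 (1.67). Of the 3 astrocyte markers, the glutamate transporter gene Slc1a2 rose with both fragments. The 3 together summed to at most 1.16 CPM in the controls and 6.02 to 6.78 CPM with nApoE4, and to at most 1.19 and 4.36 to 4.50 CPM in the nApoE3 experiment, while Gfap had at most 4 counts in any library. Among oligodendrocyte markers, Mbp fell with nApoE4 (log2 fold change -0.74), and Mog was listed at 0. The part of these markers in the results was not tested, and in bulk RNA fewer cells of a type and less RNA per cell cannot be told apart.

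Among the libraries, 2 controls of the nApoE4 experiment stood apart for these genes. Replicate 2 was the highest of its group for 35 of 37 well counted constitutive members, with a median of 0.17 above the group mean on the log2 scale, against -0.04 and -0.12 in replicates 1 and 3. Replicate 1 held 282 counts of Psmb8 and 85 of Psmb9, at least 10 times those of any other library, and among genes with at least 50 counts there the same held for 1 further gene, Trem2, a microglial receptor gene. Results that rest on these libraries are given with and without them.

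**Figure D1:**
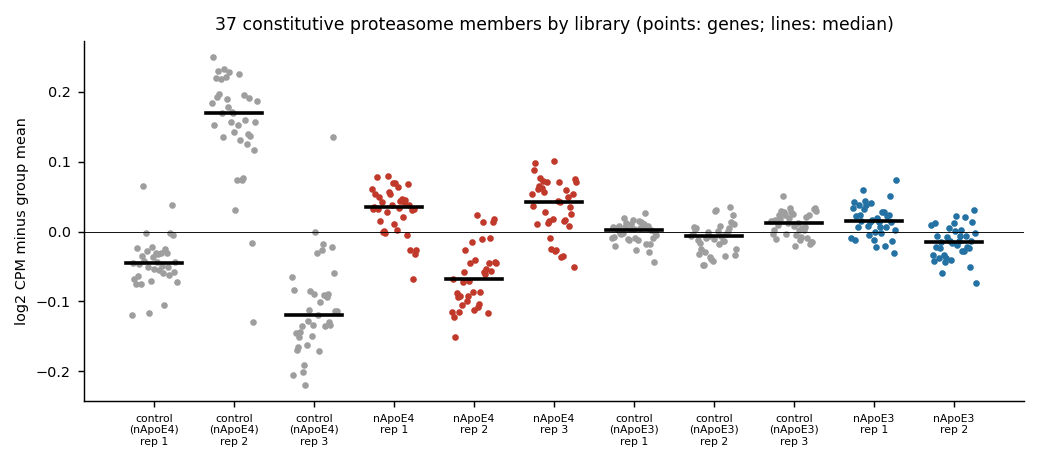
Log2 CPM of each of 37 well counted constitutive proteasome members (points) minus the mean of its group, for the 11 libraries, with the median as a line. Control replicate 2 of the nApoE4 experiment lies above its group (median 0.17), and the libraries of the nApoE3 experiment lie within 0.02 of their group means in the median.

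The sequence before the start of transcription is shown for Psmb10 and Psme2, immune genes that rose with both fragments, and, for contrast, for the constitutive catalytic gene Psmb5. For Psme1, which also rose with both, only the first 30 transcribed bases are shown. RefSeq windows (GRCm38.p6) span 250 bases before the start and 50 after it. Bases inside the principal transcript were removed from the stretches before the start, not from that of Psme1. All are printed 5′ to 3′ on the strand of the gene, and capitals mark a match to a searched motif. Psmb10 (chr8:105938445-105938642, minus strand): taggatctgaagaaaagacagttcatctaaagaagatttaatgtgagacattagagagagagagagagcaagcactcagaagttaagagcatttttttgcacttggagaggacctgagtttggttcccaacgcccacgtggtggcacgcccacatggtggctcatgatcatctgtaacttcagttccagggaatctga
Psme2 (chr14:55591102-55591351, minus strand): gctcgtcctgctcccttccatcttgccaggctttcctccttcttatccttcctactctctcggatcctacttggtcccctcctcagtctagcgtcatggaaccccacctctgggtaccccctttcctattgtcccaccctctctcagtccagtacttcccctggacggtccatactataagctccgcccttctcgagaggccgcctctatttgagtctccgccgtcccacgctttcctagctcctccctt
Psmb5 (chr14:54618023-54618245, minus strand): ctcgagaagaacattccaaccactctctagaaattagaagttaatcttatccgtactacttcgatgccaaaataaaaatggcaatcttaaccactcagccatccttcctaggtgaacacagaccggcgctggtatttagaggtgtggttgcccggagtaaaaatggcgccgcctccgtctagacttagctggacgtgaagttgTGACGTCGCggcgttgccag
Psme1, the first 30 bases from the start (chr14:55578494-55578523, plus strand): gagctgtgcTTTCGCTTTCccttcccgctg

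The stretches differed in composition, with 3 CG dinucleotides in 198 bases for Psmb10, 10 in 250 bases for Psme2 and 14 in 223 bases for Psmb5. The median over all windows was 6 in 250 bases. Those windows were not trimmed. The Psmb10 and Psmb5 stretches lack the bases next to the start, so their counts cannot be set directly against that median. In all, 3 motifs were searched on both strands. They were TTCNNNGAA, the element bound by STAT factors, the core of the interferon-stimulated response element, bound by interferon regulatory factors, and TGACNNNGC, the core of the antioxidant element. They were in 8.30%, 3.44% and 12.4% of all 32851 windows. Of the 42 members with a window, the first motif was in Psmb8, Psmd2 and Psmg1, the second in Psme1, Psmb3, Psmd4, Psmd9 and Psmg4, and the third in Psmb5, Psmb6, Psmc6, Psmd9, Psmd12 and Psme4. None of the 3 was in the windows of Psmb10 or Psme2. In Psmb8 the match was TTCCCAGAA, and the Psme1 match, TTTCGCTTTC, lies within the transcribed bases shown above.

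Transcripts of 3 of the 5 immune subunits, Psmb10, Psme1 and Psme2, rose with either fragment. Psmb10, the inducible counterpart of Psmb7 (chromosome 8, 105935728 to 105938392, GRCm38.p6), had 2578, 3347 and 2710 counts across the controls and 5118, 4780 and 4599 with nApoE4. On the scale of CPM it went from 64.4 ± 8.94 to 117 ± 2.29 (SD, n = 3 each), a 1.82-fold rise (log2 fold change 0.86, approximate SE 0.09, adjusted p = 2.63e-05, edgeR with Benjamini-Hochberg adjustment). All treated libraries lay above all controls. In the nApoE3 experiment it had 5033, 4414 and 4241 counts across the controls and 8204 and 7272 with the fragment. It went from 72.6 ± 2.28 CPM (SD, n = 3) to 135 ± 8.62 CPM (SD, n = 2), 1.85-fold (log2 fold change 0.89, SE 0.04, adjusted p = 8.52e-10, edgeR), and again the groups did not overlap.

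Psme2, the beta subunit of the interferon-inducible cap (chromosome 14, 55587440 to 55591101), had 4879, 5974 and 4510 counts across the controls and 9133, 8117 and 8536 with nApoE4, 115 ± 18.3 against 208 ± 10.8 CPM (SD, n = 3 each). The rise was 1.82-fold (log2 fold change 0.86, SE 0.11, adjusted p = 8.16e-05, edgeR). With nApoE3 it had 13732 and 12946 counts against 7900, 6608 and 6326 in the controls, 233 ± 4.74 (SD, n = 2) against 110 ± 3.08 CPM (SD, n = 3). This was the only immune subunit over 2-fold, at 2.10-fold (log2 fold change 1.07, SE 0.03, adjusted p = 6.11e-12, edgeR). Treated libraries were above the controls in both experiments. Of its stretches of 75 bases, the length of the reads, 22.9% are also in Psme2b, which had 1 count in all libraries together.

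Psme1, the alpha subunit of the same cap, lies nearby (chromosome 14, 55578494 to 55581527) and rose less. It had 4547, 5612 and 4727 counts across the controls and 6853, 6125 and 6349 with nApoE4, or 111 ± 12.5 and 156 ± 7.22 CPM (SD, n = 3 each). The log2 fold change was 0.49 (SE 0.08, adjusted p = 0.000662, edgeR), 1.41-fold. With nApoE3 it had 9233 and 8516 counts against 6412, 5633 and 5420, or 155 ± 5.55 (SD, n = 2) against 92.6 ± 3.03 CPM (SD, n = 3), a log2 change of 0.73 (SE 0.03, adjusted p = 9.45e-10, edgeR). No treated library overlapped its controls. The calls of Psmb10, Psme1 and Psme2 for each fragment were kept in all 12 alternatives for nApoE4 and all 11 for nApoE3.

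Psmb8 and Psmb9 were hardly counted. Psmb8, the counterpart of Psmb5 (chromosome 17, 34198195 to 34201454), had 282, 6 and 4 counts across the controls and 6, 9 and 9 with nApoE4, and it did not pass the filter on low counts there. In the nApoE3 experiment it had 15, 15 and 14 counts across the controls and 17 and 22 with the fragment, a log2 fold change of 0.53 that did not pass the test (SE 0.33, adjusted p = 0.17, edgeR). Psmb9, the counterpart of Psmb6 (chromosome 17, 34182030 to 34187330), had 85, 2 and 1 counts across the controls and 4, 1 and 2 with nApoE4, then 4, 5 and 3 against 6 and 5 in the nApoE3 experiment, and was tested in neither. Outside the 1 control library both genes stayed at or under 22 counts, too few to read a change with either fragment. In the alternatives that tested them with nApoE4, Psmb8 passed the threshold in 2 of 3 and Psmb9 in 1 of 2. For both genes the controls had the higher mean, 2.28 against 0.194 CPM for Psmb8 and 0.687 against 0.0559 CPM for Psmb9. That higher mean came from control replicate 1, so these calls show no rise.

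Low counts were also seen for other members. Of the 46 immune and constitutive members, 40 had more than 30 CPM in every library, from 32.9 CPM upwards, and 6 had at most 2 CPM in all libraries or all but 1. Those 6 were Psmb8, Psmb9, Psmb6, Psmd10, Psmg1 and Psmg3, although Psmb6 is part of every constitutive barrel. B2m, which encodes the light chain of class I molecules, was also listed at 0 in all 11 libraries. A low value of such a gene therefore cannot be read as low expression, and the cause of the low counts was not tested. No stretch of 75 bases of the Psmb6 transcripts occurs in another gene, whereas 14.7% of the exon bases of Psmb8 overlap Gm20496 and 5.79% of those of Psmb9 overlap Tap1.

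**Figure D2:**
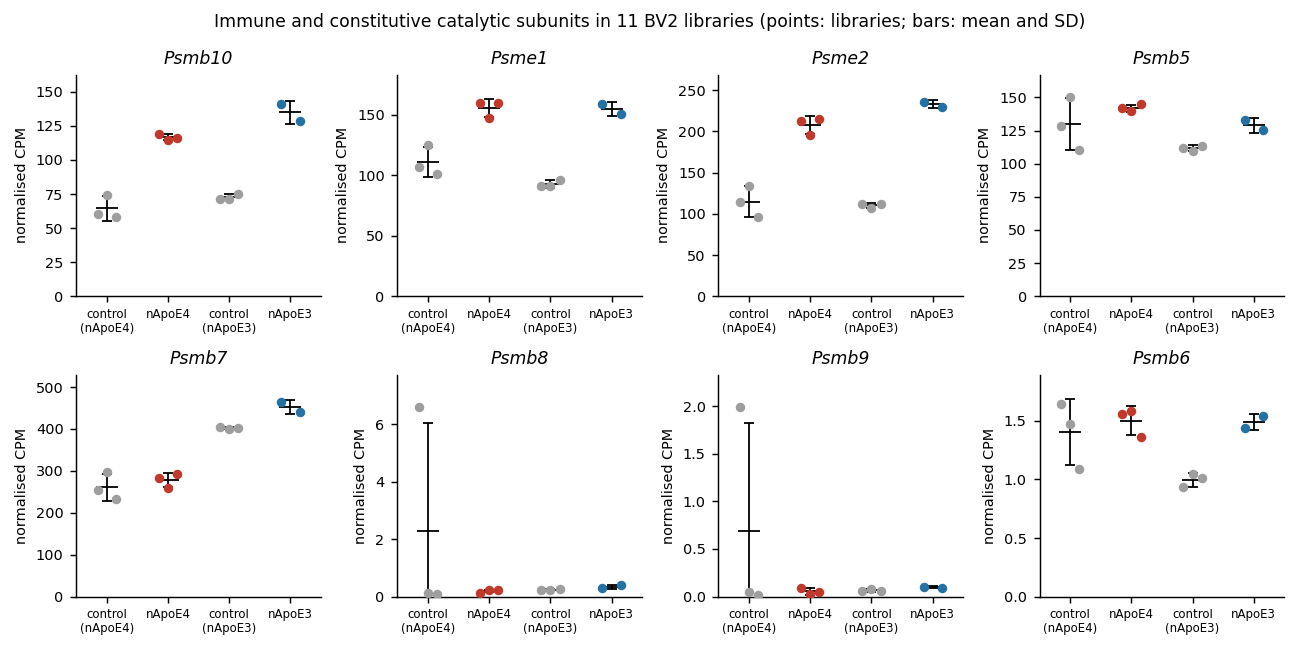
Normalised CPM in each library (points) with mean and SD (bars) for immune subunits and the constitutive catalytic subunits, by group, each axis starting at 0. Psmb10, Psme1 and Psme2 separate treated from control libraries in both experiments, Psmb5 and Psmb7 move little, and Psmb8 and Psmb9 are near 0 outside 1 control library.

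The constitutive catalytic subunits moved less than Psmb10. Psmb7 had 10841, 13283 and 10832 counts across the controls and 12167, 10804 and 11612 with nApoE4, and the groups overlapped (log2 fold change 0.10, SE 0.09, adjusted p = 0.377, edgeR). Psmb5 had 5480, 6730 and 5165 counts against 6078, 5795 and 5747, overlapping as well (log2 fold change 0.13, SE 0.10, adjusted p = 0.265, edgeR). Neither passed the test with nApoE4, and 36.8% of the stretches of 75 bases of Psmb5 are shared with Gm3375 or Mir686.

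With nApoE3 both rose by small amounts. Psmb7 had 28637, 24746 and 22624 counts across the controls and 27005 and 24860 with the fragment, 402 ± 3.05 (SD, n = 3) against 452 ± 16.8 CPM (SD, n = 2), a log2 change of 0.16 (SE 0.02, adjusted p = 7.05e-05, edgeR). Psmb5 had 7924, 6782 and 6402 counts against 7730 and 7064, or 112 ± 2.05 against 129 ± 5.47 CPM (SD, n = 3 and 2), a log2 change of 0.20 (SE 0.03, adjusted p = 9.16e-05, edgeR). Scaled to library size, the treated libraries were above all controls for both genes. Psmb6 had 70, 66 and 51 counts against 67, 66 and 54 with nApoE4, and 66, 65 and 57 against 84 and 87 with nApoE3, where its log2 fold change was 0.57 (SE 0.17, adjusted p = 0.0101, edgeR), a call that held in 9 of 11 alternatives and was lost with DESeq2.

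Per kilobase of principal transcript, the mean level of Psmb10 in the controls was 49.1 CPM per kb in the nApoE4 experiment and 55.4 in the nApoE3 experiment, below Psmb7 at 225 and 347 CPM per kb. The ratio of Psmb10 to Psmb7 was 0.210, 0.223 and 0.221 in the controls and 0.372, 0.391 and 0.350 with nApoE4, a 1.70-fold shift. In the nApoE3 experiment it was 0.156, 0.158 and 0.166 in the controls and 0.269 and 0.259 with the fragment, 1.65-fold. The ratio separated treated from control libraries in both experiments, and control replicate 2 of the nApoE4 experiment (0.223) lay next to replicate 3 (0.221) on this scale. The ratio was formed over chosen members and carries no test.

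Summed over the 3 pairs, the immune to constitutive ratio was 0.142, 0.135 and 0.137 in the controls and 0.226, 0.231 and 0.213 with nApoE4, and 0.115, 0.117 and 0.122 against 0.196 and 0.189 with nApoE3. It rested on Psmb10, since Psmb8 and Psmb9 added little. The median over the 3 pairs taken one by one, which gives Psmb8 and Psmb9 full weight, was -0.89 on the log2 scale for nApoE4 and 0.03 for nApoE3. For nApoE4 it was 0.40 without control replicate 1, the library with 282 counts of Psmb8, a setting chosen after seeing the data. Against Psme3, the gene of the nuclear activator that interferon does not induce, Psme2 shifted 1.61-fold with nApoE4 and 1.84-fold with nApoE3, and Psme1 shifted 1.24-fold and 1.46-fold. These ratios did not overlap between treated and control libraries either.

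**Figure D3:**
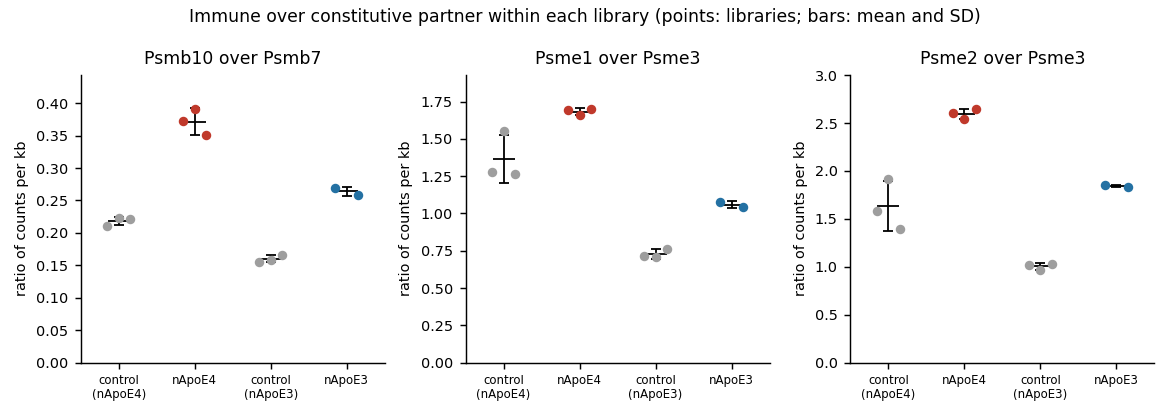
Ratio of counts per kb of Psmb10 to Psmb7, Psme1 to Psme3 and Psme2 to Psme3 in each library (points), with mean and SD (bars), by group. Treated libraries lie above the controls of their experiment in all 3 ratios, and the controls of the nApoE4 experiment lie above those of the nApoE3 experiment.

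Across the whole complex, nApoE4 raised 11 of the 42 members tested and lowered 1, beside 28.6% of all 14240 genes tested called higher and 28.6% called lower, 57.2% in either direction. No member was called with a fold change above 2, beside 10.2% of all genes called higher by that rule. The constitutive set gave 8 higher and 0 lower of 38 tested, with a median log2 fold change of 0.11, against 0.0013 over all genes. None of the 7 alpha ring genes, the 4 structural beta genes or the 3 constitutive catalytic genes passed the test, and 1 of 6 ATPase genes and 5 of 11 other genes of the regulatory particle were higher. The share of members called was under the background, and it depended on the control library that stood apart. Without control replicate 2, 26 of 42 members were higher beside 30.2% of all genes, and the median of the 37 well counted constitutive members went from 0.10 to 0.19. Without control replicate 3 that median moved the other way, to 0.045. In that setting 8 members were higher and 2 lower, beside 27.8% and 27.9% of all genes.

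The largest constitutive rise with nApoE4 was that of Psmd11, a subunit of the lid of the regulatory particle. It had 4949, 5648 and 5473 counts across the controls and 9280, 9134 and 8422 with the fragment, 120 ± 5.35 against 216 ± 3.80 CPM (SD, n = 3 each). Its log2 change of 0.86 (SE 0.06, adjusted p = 1.28e-06, edgeR) was as large as that of Psmb10, and the groups were far apart. Psmd5, a chaperone that helps assemble the base of the regulatory particle, had 3001, 3590 and 3048 counts against 5512, 4962 and 5000 (log2 fold change 0.80, SE 0.08, adjusted p = 1.73e-05, edgeR). Psmd8, another lid subunit, had 14615, 18342 and 15278 counts against 21978, 20107 and 19923 (log2 fold change 0.48, SE 0.09, adjusted p = 0.00106, edgeR). The groups did not overlap for these 3 genes, which were named for their large rises, so the separation adds nothing to the tests. Psmc6, an ATPase, rose by 0.34 and Psmd14, the deubiquitinase of the lid, by 0.21 on the log2 scale (adjusted p = 0.0052 and 0.0374, edgeR), and the call of Psmd14 held in 6 of 12 alternatives. Psmd1, Psmd6 and Psme3 rose by 0.19 to 0.20, calls that held in 8, 4 and 7 of 12 alternatives. The member that fell was Psmc3ip, which is no subunit, from 19.3 ± 1.90 to 16.3 ± 0.896 CPM (SD, n = 3 each; log2 fold change -0.24, adjusted p = 0.038, edgeR), a call that held in 6 of 12 alternatives.

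With nApoE3, 37 of 45 members tested were higher and 2 lower, beside 33.1% of all 14817 genes called higher and 34.6% called lower, 67.7% in either direction. Of the constitutive set, 34 of 40 were higher and 1 lower, with a median log2 fold change of 0.26, against -0.0026 over all genes. The rise ran through the classes, with 7 of 7 alpha ring genes (0.07 to 0.50), 4 of 4 structural beta genes (0.07 to 0.30), 5 of 6 ATPase genes and 11 of 11 other genes of the regulatory particle (0.07 to 0.72). Members of the constitutive set that did not pass were Psmc3, Psmd9, Psme4, Psmg1 and Psmg4, at -0.14 to 0.06. With a fold change above 2, 2 members were called, Psme2 and the sparsely counted Psmd10, beside 9.60% of all genes called higher by that rule. The median rise of 0.26 was under the 0.73 to 1.07 of Psmb10, Psme1 and Psme2, while Psmd5, Psmd8 and Psmd11 reached 0.72 to 0.81. The spread between these libraries was small, with a median standard error over the members of 0.03, against 0.08 in the nApoE4 experiment.

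The same lid and chaperone genes led with nApoE3. Psmd5 had 7765, 6525 and 6114 counts across the controls and 10912 and 10906 with the fragment, 108 ± 2.34 against 190 ± 3.98 CPM (SD, n = 3 and 2; log2 fold change 0.81, SE 0.03, adjusted p = 5.97e-11, edgeR). Psmd8 had 14851, 13340 and 12298 counts against 21071 and 19784 (log2 fold change 0.72, SE 0.02, adjusted p = 7.13e-11, edgeR). Psmd11 had 12693, 11582 and 10279 counts against 17320 and 17317 (log2 fold change 0.72, SE 0.03, adjusted p = 9.59e-11, edgeR). The groups were apart for all 3, again genes named for their large rises. Of the barrel, Psma6 rose from 247 ± 1.90 to 350 ± 2.12 CPM and Psma5 from 243 ± 1.58 to 344 ± 7.39 CPM (SD, n = 3 and 2), log2 fold changes of 0.50 and 0.49. Both encode alpha ring subunits, whose tails form the gate of the barrel. The members that fell were Psmc3ip (log2 fold change -0.38, adjusted p = 3.77e-06, edgeR) and Psmg2, a chaperone of barrel assembly, whose change of -0.08 (adjusted p = 0.0281, edgeR) held in 4 of 11 alternatives.

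Psmd10, a chaperone of the regulatory particle also known as gankyrin, had 12, 12 and 5 counts across the controls and 32 and 23 with nApoE3, and it passed the test (log2 fold change 1.63, SE 0.37, adjusted p = 0.00183, edgeR). In the nApoE4 experiment it had 2, 4 and 2 counts against 10, 9 and 15 and did not pass the filter. The treated libraries were the higher ones in both experiments, on few counts. Psmg1 had 3 to 17 counts in any library and Psmg3 none, while the tissue-restricted Psma8 and Psmb11 had at most 3 and 4 counts.

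**Figure D4:**
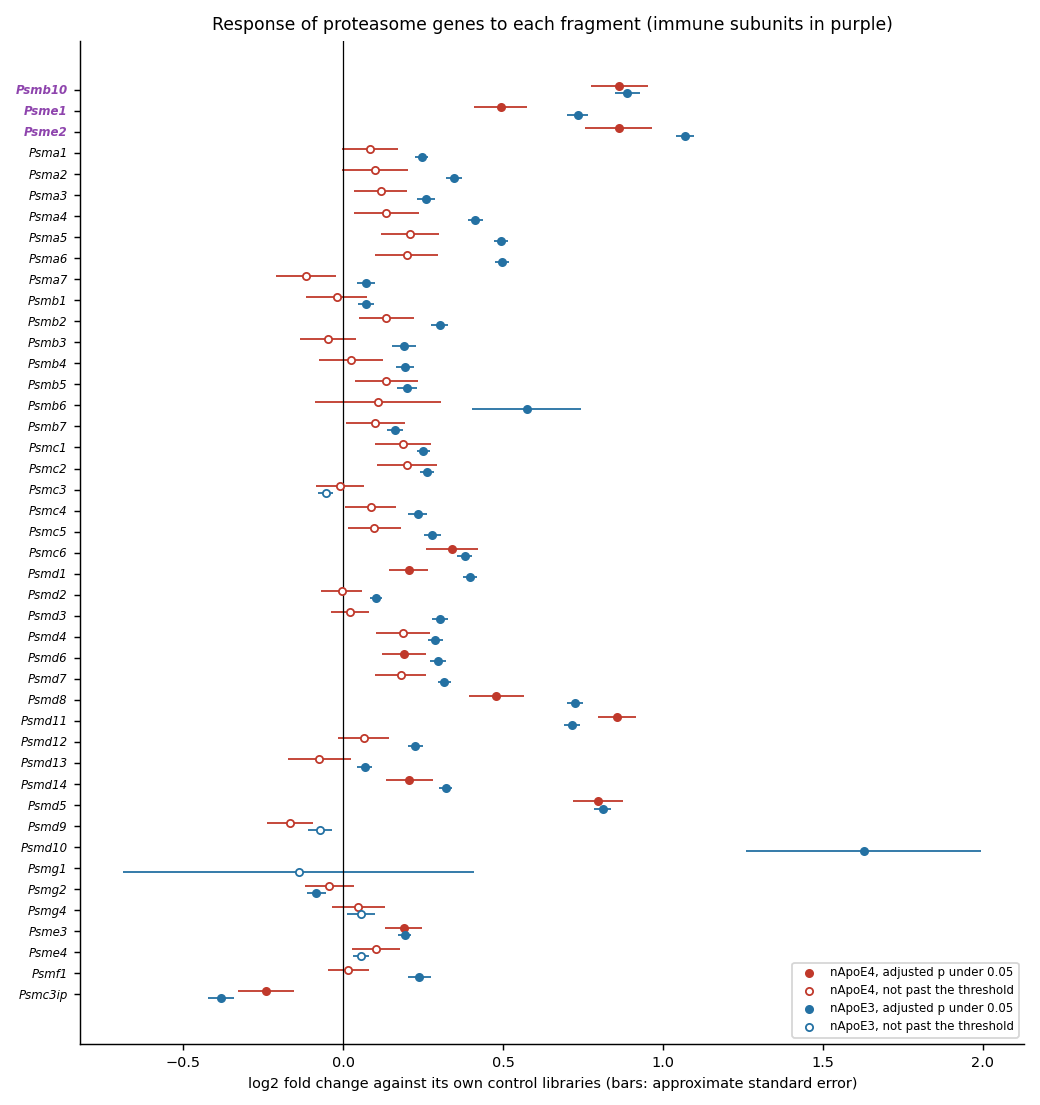
Log2 fold change (points) with approximate SE (bars) of each tested member but Psmb8 for nApoE4 (red) and nApoE3 (blue), each against its own controls, with filled points at an adjusted p under 0.05 in edgeR and immune subunits in purple. Psmb10, Psme1 and Psme2 lie to the right with Psmd5, Psmd8 and Psmd11, and most other members lie between 0 and 0.5. The sparsely counted Psmd10, tested with nApoE3 only, lies furthest to the right at 1.63. For members tested with both fragments, the bars of nApoE4 are the wider ones.

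Whether the fragments differed in their effect was tested as an interaction over all 11 libraries. The difference was positive for 6 of the 45 members tested, but none was called as rising more with nApoE4. As rising less, 3 members were called, beside 14.4% of all 15287 genes tested called higher and 13.9% lower, 28.3% in either direction. Those 3 were Psmd3, a lid subunit (-0.29 on the log2 scale, SE 0.07, adjusted p = 0.00524), Psmf1, the inhibitor PI31 (-0.23, SE 0.08, adjusted p = 0.0451), and Psmd1, a scaffold subunit of the base (-0.20, SE 0.06, adjusted p = 0.0319, edgeR). Psmd3 changed by 0.02 with nApoE4 and 0.30 with nApoE3, and its level was 171 ± 8.24 against 173 ± 3.65 CPM in the first experiment and 187 ± 1.46 against 232 ± 6.23 CPM in the second. The median difference over the members was -0.15, against 0.0025 over all genes. Without control replicate 2 of the nApoE4 experiment the median of the well counted constitutive members went from -0.15 to -0.06, and 7 members were lower and 1 higher. Without control replicate 3 of that experiment the median was -0.19, and 14 members were lower and 0 higher.

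For the immune subunits, no difference between the fragments passed the test. It was -0.04 for Psmb10 (SE 0.12, adjusted p = 0.858), -0.25 for Psme1 (SE 0.10, adjusted p = 0.0896) and -0.22 for Psme2 (SE 0.13, adjusted p = 0.241, edgeR) on the log2 scale. The sign for Psmb10 turned without control replicate 2 of the nApoE4 experiment, to 0.08. For the constitutive catalytic genes it was -0.08 for Psmb5, -0.07 for Psmb7 and -0.48 for Psmb6, none past the threshold. The value of Psmb8, -4.07, came from the 1 control library with 282 counts and was 0.27 without it.

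The controls of the experiments already differed in the absence of any fragment. In the controls of the nApoE3 experiment, 24 of 44 members tested were higher and 6 lower than in those of the nApoE4 experiment, beside 34.4% of all genes higher and 34.9% lower, 69.3% in either direction. All 6 ATPase genes were higher, by 0.34 to 0.73 on the log2 scale, led by Psmc3 at 222 ± 21.4 against 373 ± 8.97 CPM (SD, n = 3 each; adjusted p = 3.27e-05, edgeR). Psmd7, Psme3, Psmd11 and Psmd12 were higher by 0.59 to 0.63, and the catalytic Psmb7 by 0.61 (SE 0.08, adjusted p = 0.000272, edgeR). Psmd8 went the other way, at 360 ± 43.3 against 215 ± 3.98 CPM (log2 fold change -0.76, SE 0.08, adjusted p = 6.5e-05, edgeR), with Psmb2 (-0.38), Psmf1 (-0.35) and Psmb3 (-0.26).

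The immune subunits differed less between the controls. Psme1 was lower by 0.28 on the log2 scale (log2 fold change -0.28, SE 0.08, adjusted p = 0.0127, edgeR), while Psmb10 at 0.16 and Psme2 at -0.07 did not pass the test. Psmb8 gave -3.28 with control replicate 1 of the nApoE4 experiment and 1.07 without it, and Psmb6 gave -0.50 (adjusted p = 0.0418, edgeR), a call that held in 4 of 12 alternatives. The lower ratio of Psmb10 to Psmb7 in the nApoE3 experiment went with a higher level of Psmb7.

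Genes that act on the proteasome from outside the family were also counted, from a list of 20, of which 19 were matched. With nApoE4, 9 of 19 were higher and 2 lower, 57.9% in either direction beside 57.2% of all genes. With nApoE3, 14 were higher and 5 lower, 100% beside 67.7%. Nfe2l1, a factor that drives the proteasome genes when degradation falls short, had 7232, 7159 and 8159 counts across the controls and 20360, 19511 and 18906 with nApoE4, 2.83-fold higher (log2 fold change 1.50, SE 0.06, adjusted p = 4.53e-08, edgeR). With nApoE3 it had 15274, 13520 and 12633 counts against 18751 and 18109, 1.46-fold higher (log2 fold change 0.54, SE 0.02, adjusted p = 5.94e-10, edgeR). It rose in every treated library and by more with nApoE4, with a difference of 0.94 (SE 0.07, adjusted p = 4.69e-07, edgeR), while the median difference over the constitutive set was -0.15.

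Ngly1, an enzyme that removes sugars from Nfe2l1 protein and so takes part in its activation, rose by 0.78 with nApoE4 (adjusted p = 1.92e-06, edgeR) and by 0.37 more than with nApoE3 (adjusted p = 0.00275, edgeR). Zfand5, a zinc finger protein that binds the proteasome and speeds degradation, rose by 0.81 and 0.80, from 128 ± 6.13 to 224 ± 8.49 CPM and from 147 ± 1.31 to 257 ± 3.00 CPM. Zfand2a, an arsenite-inducible protein with the same kind of zinc finger, went opposite ways, from 84.3 ± 0.605 to 60.6 ± 0.787 CPM with nApoE4 and from 56.5 ± 2.88 to 73.0 ± 0.421 CPM with nApoE3 (difference -0.85, SE 0.07, adjusted p = 1.14e-06, edgeR). Pomp, the chaperone that matures the barrel, gave -0.10 with nApoE4 (adjusted p = 0.417, edgeR) and 0.19 with nApoE3 (adjusted p = 9.12e-05, edgeR). Adrm1, a ubiquitin receptor of the regulatory particle, rose by 0.23 with nApoE4 (adjusted p = 0.0189, edgeR) and by 0.50 with nApoE3 (adjusted p = 4.7e-09, edgeR), with a difference of -0.28 (adjusted p = 0.0266, edgeR). Between the controls, 14 of these genes were higher in the nApoE3 experiment and 2 lower, 84.2% in either direction beside 69.3% of all genes, with Akirin2, which carries proteasomes into the nucleus, higher by 1.13, Usp14 by 0.64 and Txnl1 by 0.63.

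**Figure D5:**
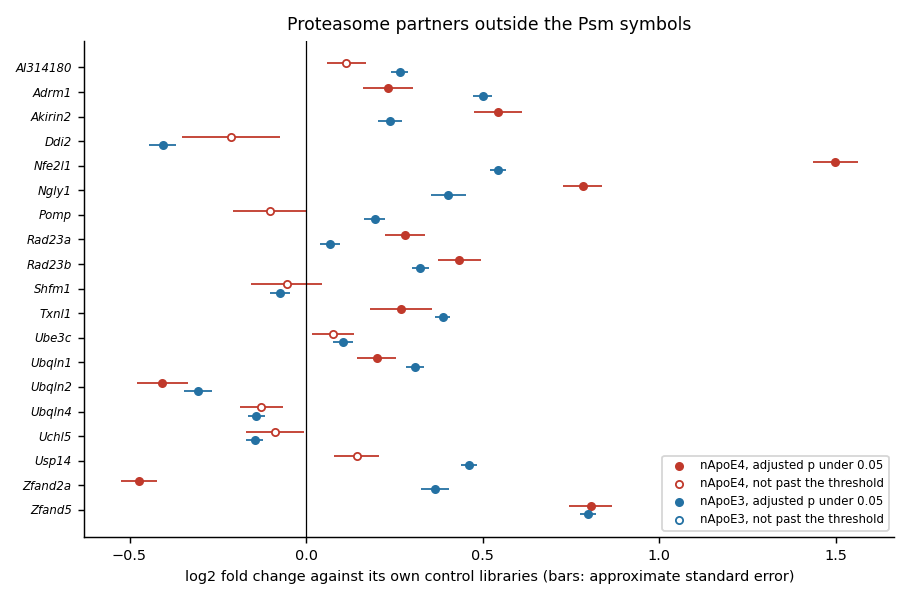
Log2 fold change (points) with approximate SE (bars) of 19 proteasome partners for nApoE4 (red) and nApoE3 (blue), with filled points at an adjusted p under 0.05 in edgeR. Nfe2l1 lies at 1.50 with nApoE4 and 0.54 with nApoE3, Zfand5 at about the same place with both, and Zfand2a on opposite sides of 0.

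Downstream of the immune proteasome, peptides are carried into the endoplasmic reticulum by Tap1 and Tap2 and loaded on class I molecules. Of the 10 genes listed for this step, 4 of 7 tested were higher with nApoE4 and 0 lower, 57.1% beside 57.2% of all genes, and 4 of 8 were higher and 2 lower with nApoE3, 75% beside 67.7%. These shares were near those of all genes. Tapbpl, which edits the peptides on class I molecules, rose from 13.7 ± 0.843 to 36.4 ± 1.87 CPM with nApoE4 (SD, n = 3 each; log2 fold change 1.42, adjusted p = 1.59e-07, edgeR) and from 9.92 ± 0.811 to 28.4 ± 0.678 CPM with nApoE3 (SD, n = 3 and 2; log2 fold change 1.51, adjusted p = 2.45e-10, edgeR). Nlrc5, a transactivator of class I genes that also acts on Psmb9 and Tap1, rose by 1.08 and 1.32 on the log2 scale (adjusted p = 3.62e-05 and 2.12e-12, edgeR). Tapbp, the loading chaperone tapasin, had 13, 18 and 13 counts against 79, 78 and 66 with nApoE4, and 16, 25 and 34 against 71 and 45 with nApoE3 (log2 fold changes 2.45 and 1.31, adjusted p = 8.03e-06 and 0.00444, edgeR). These genes, named for the size of their changes, were higher in every treated library than in any control of their experiment.

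Tap1, the neighbour of Psmb9, had 6, 5 and 5 counts across the controls and 23, 15 and 7 with nApoE4, and was not tested there. In the nApoE3 experiment it had 7, 125 and 8 counts against 26 and 23, with control replicate 2 alone above the treated libraries. Its log2 fold change was -0.81 with that library (SE 0.93, adjusted p = 0.461, edgeR) and 1.82 without it (adjusted p = 0.00199, in a range of 0.00199 to 0.726 over the alternatives, edgeR or DESeq2). Between the controls, 4 of 7 tested genes of this step were higher and 1 lower in the nApoE3 experiment, 71.4% beside 69.3% of all genes, and the chaperones Canx, Calr and Pdia3 were higher by 1.09, 1.06 and 0.85 on the log2 scale.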

How the data were processed

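RNA was sequenced from 11 BV2 samples in 4 groups, taken from the sample labels. The authors trimmed single-end reads of 75 bases with Trim Galore 0.5.0, checked them with FastQC 0.11.8, mapped them to GRCm38.p6 with HISAT2 2.1.0 and counted them on genes with HTSeq 0.11.0 (versions from the submitters' processing notes). They deposited raw counts per gene for each sample, without normalization. The strand setting and annotation release of the counting are not given in the sources used here. Ambiguous reads made up 3.24 to 3.56% and reads mapped to several places 11.7 to 13.2% of tallied reads, and neither was counted on a gene.

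Treated samples were tested against the controls of their own experiment in R 4.3.3 with edgeR 4.0.16 (filterByExpr, TMM, quasi-likelihood F test, Benjamini-Hochberg adjustment over all genes, threshold 0.05). Standard errors are approximate, the size of the log2 fold change over the square root of F. CPM were TMM-normalised over all 11 samples. The difference between fragments was an interaction over 4 group means. Ratios were counts per kb of the GENCODE principal transcript. Alternatives were DESeq2 1.42.0, its size factors, other filters, all 11 samples in 1 fit, a replicate block, and leaving out each replicate. The pipeline was tested on simulated data.

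Members and lists were chosen with earlier results of these data known. Immune and catalytic subunits were always described, with up to 5 other members that rose most and 5 that fell most (adjusted p under 0.05, a group mean of 1 CPM or more), and Pomp, Tap1 and up to 3 others of each partner list. Psmd10, Psmd6, Psmd1, Psme3 and, with nApoE4, Adrm1 were named after their values were seen. Paaf1 was not analysed here, and 1 microglial marker is not reported here. Promoter windows are from RefSeq, GRCm38.p6.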

Additional observations from a re-analysis of the deposited data

Results flagged for a closer look

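The responses to the fragments differed for 3 members and for 3 of the partners described above by the interaction test of edgeR over 11 libraries. The members were Psmd3 at -0.29, Psmf1 at -0.23 and Psmd1 at -0.20 on the log2 scale, all with the smaller rise for nApoE4. The partners were Nfe2l1 at 0.94 and Ngly1 at 0.37, with the larger rise for nApoE4, and Zfand2a at -0.85, which fell with nApoE4 and rose with nApoE3. The calls of Nfe2l1, Ngly1 and Zfand2a held in all 16 alternatives, that of Psmd3 in 15, that of Psmd1 in 7 and that of Psmf1 in 5. Fragment and experiment cannot be told apart in these values.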

How the results depend on the processing

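The number of members called depended on single libraries for nApoE4. For nApoE4, 11 members were higher and 1 lower, against 17 and 3 with all 11 samples in 1 fit and 3 lower among genes with at least 1 count. Leaving out each replicate gave 7 to 26 higher and 0 to 2 lower, with 26 without control replicate 2 and 7 without nApoE4 replicate 1. For nApoE3, 37 were higher in the main comparison and 34 to 37 with a replicate left out, and 2 were lower, against 1 by DESeq2, 1 with all 11 samples, and 1 to 3 with a replicate left out. The cause of these moves was not tested.

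The replicate numbers did not pair the samples, with residual correlations of same-numbered samples of -0.34 to -0.09 for nApoE4 and -0.02 to -0.00 for nApoE3. With the replicate number as a block, 7 members were higher and 0 lower with nApoE4, 37 and 1 with nApoE3, and 0 differed between the fragments.

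Members called as rising less with nApoE4 were 3, and 1 to 14 with a replicate left out. There were 14 without control replicate 3 and 7 without control replicate 2 of the nApoE4 experiment. Those called as rising more were 0 to 1. Between the controls, 6 were lower, and 3 to 10 with a replicate left out (10 without control replicate 3 of the nApoE4 experiment and 3 without replicate 1 or 2 of the nApoE3 controls). The log2 change of the summed immune to constitutive ratio, 0.70 for nApoE4 and 0.71 for nApoE3, was -0.887 and 0.0334 as the median of 3 pairs, the former 0.403 without control replicate 1, and 0.766 for nApoE4 as Psmb10 over Psmb7, the last 2 settings chosen after seeing the data.

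The sign of some log2 values turned, none of them past the threshold in the main comparison. Over the left-out replicates, Pomp with nApoE4 ran from -0.195 to 0.0049 (without control replicate 2), Psmb6 with nApoE4 from -0.0493 (without control replicate 3) to 0.233, and Tap1 with nApoE3 from -1.37 to 1.82 (without control replicate 2). In the difference between fragments, Psmb10 ran from -0.106 to 0.0846, Psmb5 from -0.18 to 0.0418 and Psmb7 from -0.152 to 0.0283, each highest without nApoE4 control replicate 2, and Psmb10 was also 0.0316 without nApoE3 replicate 1 and 3.372e-05 among genes with at least 1 count. There Psmb8 ran from -4.64 to 0.271 (without nApoE4 control replicate 1) and Tap1 from -0.252 (without nApoE3 control replicate 2) to 2.92. Between the controls, Psmb8 ran from -3.86 to 1.07 (past the threshold in 5 of 11 alternatives) and Psme2 from -0.184 to 0.0495, highest without nApoE4 control replicate 1 and 2. Of the other values for single genes, 892 kept their direction and side of the threshold, 61 lost and 17 gained a call. Few counts limit Psmb8, Psmb9, Psmd10, Psmg1 and Psmg3, and the cause of these low counts was not tested.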
